A study of Mus musculus with 16 samples.

Results

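The Toll-like receptors and CD14 were examined in RAW 264.7 cells, a mouse macrophage-like line, under LPS and the adenosine analogue cordycepin. The genes were Tlr1, Tlr2, Tlr3, Tlr4, Tlr6, Tlr7, Tlr8, Tlr9, Tlr13 and Cd14, taken wherever the gene name of an array probe equalled one of these 10 names. This gave 14 of the 55681 probes on each array. For 8 of the 10 genes at least 1 probe was well above background on all 16 arrays, and Tlr3 and Tlr8 are the exceptions. There were 4 conditions with 4 arrays each, 1 from each of 4 days of culture. Cells labelled DMSO had the solvent alone for 120 min, and cells labelled cordycepin had 20 µM cordycepin in DMSO for 120 min. Cells labelled LPS+DMSO and LPS+cordycepin had the same solvent or cordycepin for 60 min, followed by 1 µg/ml LPS for the last 60 min. All wells of a day came from 1 plate of this single line and stood in low-serum medium for a day before treatment.

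Toll-like receptors are membrane proteins that recognise conserved parts of microbes. CD14 binds LPS and hands it to the pair of TLR4 and MD-2 at the cell surface. TLR2 works as a dimer with TLR1 or TLR6 and recognises bacterial lipoproteins. TLR3, TLR7, TLR8, TLR9 and TLR13 sit in endosomes and recognise nucleic acids: double-stranded RNA, single-stranded RNA, unmethylated CpG DNA and, for the rodent receptor TLR13, bacterial ribosomal RNA. Most signal through the adaptor MyD88, while TLR3 and internalised TLR4 use the adaptor TRIF, and the signals end in NF-κB, MAP kinases and interferon regulatory factors. Cordycepin lacks the ribose hydroxyl group to which the next nucleotide of an RNA chain is joined, and it is known to inhibit the addition of poly(A) tails.

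Levels below are log2 processed signals, scaled so that the arrays share their 75th percentile, and a difference of 1 log2 unit is 2-fold. A level compares 1 probe between arrays and says nothing of one gene against another. In this text a gene rose or fell where the Benjamini-Hochberg adjusted p of limma was under 0.05 across the 15877 genes tested. The share of spots detected well above background was 37.1% to 51.2% per array, lower on the slide that carried days 1 and 2 (21999 to 26055 spots) than on the slide of days 3 and 4 (27151 to 30362). Tnf, the cytokine that macrophages release first on LPS, was 11.08 ± 0.21 in DMSO and 17.79 ± 0.17 in LPS+DMSO (mean ± SD, n = 4 each), a rise of 6.71 (adjusted p = 9.82e-15). All 7 macrophage markers were measured, and of these only Adgre1 differed between any conditions compared, by 0.48 with LPS (adjusted p = 0.00556). No fibroblast or epithelial marker passed the filter on dim probes (0 of 3 each). Of the B cell markers Cd79a passed, at 5.77 to 6.09 in DMSO, 5.74 to 6.67 with cordycepin, 6.25 to 6.48 with LPS and 8.19 to 9.99 with both. It was well above background on 2, 3, 3 and 4 of 4 arrays in that order, so it passed only through the last condition. Ms4a1 was not well above background on any array. In the other lists 2 of 4 T cell, 1 of 3 neutrophil and 1 of 3 endothelial markers passed, and none of them changed. The DMSO array of day 2 stood low: it held the lowest DMSO level for 6 of the 8 genes, against 34.9% of all genes, so values without it are given where they matter.

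LPS raised Tlr2 and Cd14 and lowered Tlr4, and the other 5 genes tested did not pass the threshold. Those 2 of 8 compare with 5.14% of all genes raised, both were raised by at least 2-fold (2.09% of all genes), and 1 of 8 lowered compares with 9.8% of all genes. Cordycepin alone raised none of the 8 (8.23% of all genes) and lowered Tlr4, Tlr6 and Tlr7 (3 of 8, against 7.55%). Under LPS, cordycepin raised none (10.8% of all genes) and lowered Tlr2, Tlr6, Tlr7 and Cd14 (4 of 8, against 8.45%). With the day of culture as a block Tlr9 was raised as well, with cordycepin alone (0.36, adjusted p = 0.0175) and under LPS (0.47, adjusted p = 0.00231), so both counts of genes raised by cordycepin became 1. None of the 4 decreases under LPS reached 2-fold, as did 1.52% of all genes. In cells that had cordycepin, LPS raised Tlr2 and Cd14 (2 of 8, against 3.54%), of which Tlr2 reached 2-fold (1.69% of all genes), and lowered Tlr4 (1 of 8, against 4.61%). The LPS response itself was smaller with cordycepin for Tlr2 (1 of 8, against 0.271% of all genes) and larger for none (0.283% of all genes). The median log2 change of the 8 genes was -0.13 with LPS, -0.07 with cordycepin alone and -0.31 with cordycepin under LPS, against -0.04, 0.04 and 0.03 over all genes. When the arrays were scaled to their spots for spiked-in control RNA (spiked-in scaling), the LPS rise of Tlr2 was the only one of these calls still past the threshold, and within the slide of days 1 and 2 no decrease passed. Spiked-in scaling widened the SE of the 4 decreases under LPS to 0.37 to 0.38, from 0.09 to 0.14. Their sizes under it were -1.03 (Tlr2), -0.7 (Tlr6), -0.65 (Tlr7) and -0.59 (Cd14). This scaling shifts all genes of an array by the same amount, and the median over all genes moved from 0.03 to -0.12. The larger sizes therefore say nothing particular of these genes. The 3 decreases with cordycepin alone became slightly smaller (Tlr4 -0.33, Tlr6 -0.65 and Tlr7 -0.38), as the median over all genes moved from 0.04 to 0.1. These comparisons share their control arrays, so they are not independent of each other. The arrays read RNA of whole wells, so fewer cells with a transcript and less of it per cell cannot be told apart.

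**Figure D1:**
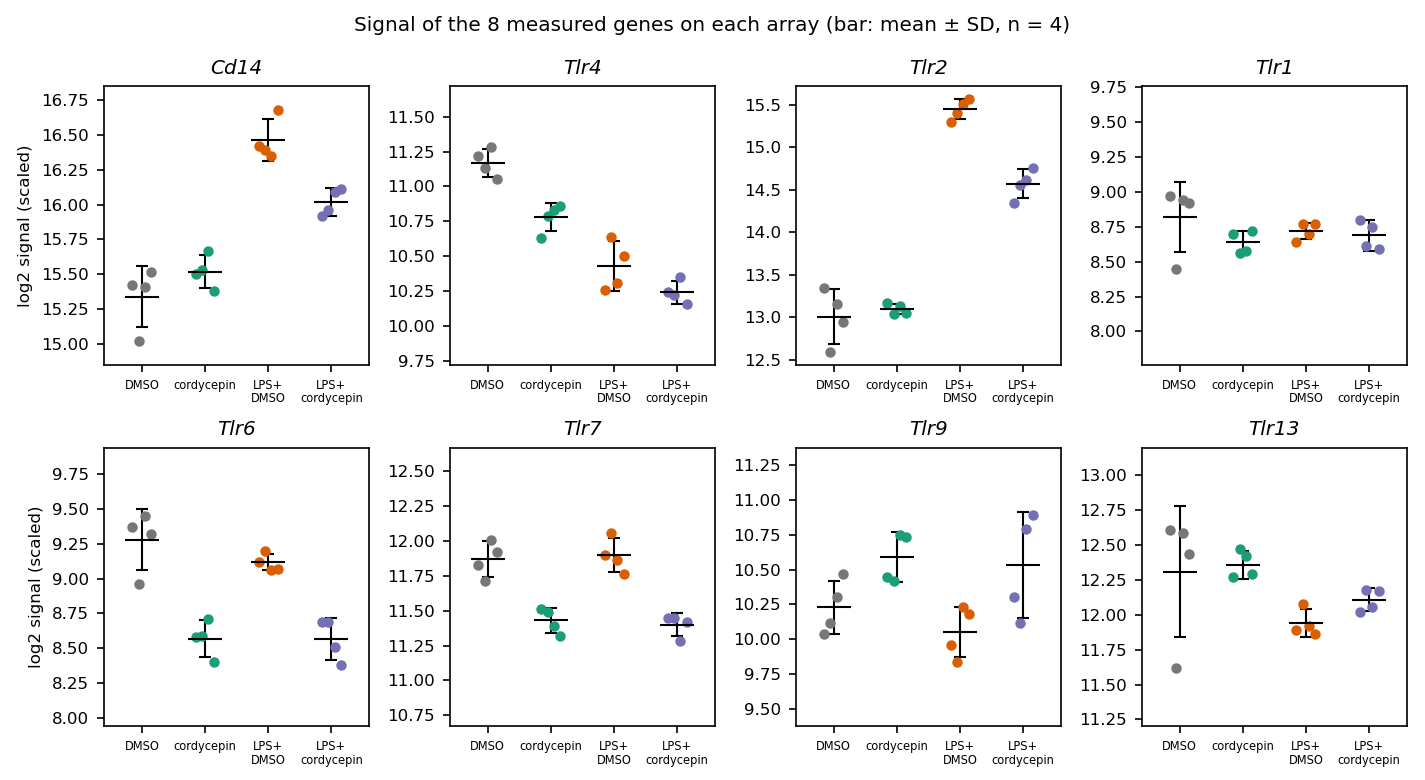
Log2 scaled signal (y axis, a different range in each panel) of the 8 measured genes on each of the 16 arrays, with points for arrays, days 1 to 4 from left to right, and bars for mean ± SD of 4 arrays. Cd14 and Tlr2 stand highest in LPS+DMSO, Tlr4 is highest in DMSO, and Tlr6 and Tlr7 are lower in both conditions with cordycepin.

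The surface receptors for LPS moved in opposite directions when LPS was added. Cd14, the LPS-binding co-receptor, was read by 1 probe at chromosome 18, 36884969 to 36885028 on the minus strand (mm9). Its log2 level on days 1 to 4 was 15.42, 15.02, 15.41 and 15.52 in DMSO, and 16.42, 16.39, 16.35 and 16.68 in LPS+DMSO. With cordycepin it was 15.50, 15.53, 15.67 and 15.38 without LPS, and 15.92, 15.96, 16.09 and 16.11 with LPS. All LPS+DMSO arrays lay above all LPS+cordycepin arrays, which lay above all arrays without LPS. LPS raised Cd14 by 1.12 ± 0.11 (SE), 2.17-fold, with a rise on 4 of 4 days (adjusted p = 4.42e-06). Without the low DMSO array of day 2 the rise was 1.01. In cordycepin-treated cells the LPS rise was 0.50 (adjusted p = 0.0105). Cordycepin lowered the LPS level of Cd14 by 0.44, 1.36-fold, on 4 of 4 days (adjusted p = 0.011), and without LPS the difference was 0.18 (95% confidence interval -0.06 to 0.42). The difference between the LPS responses was -0.62 (interval -0.96 to -0.28), with the same sign on 4 of 4 days, but its adjusted p over all genes was 0.123. The decrease under LPS lost the threshold without day 1 (adjusted p = 0.0993), without the filter on dim probes (0.0559), and within the slide of days 1 and 2 (0.161) or of days 3 and 4 (0.134). With spiked-in scaling it was lost too, at a size of -0.59 ± 0.38 (SE, adjusted p = 0.745). The LPS rise in cordycepin was lost in the same settings (0.0736, 0.0662, 0.408, 0.0829 and 0.741), without day 3 (0.0753) and without day 4 (0.0782), and its size was 0.19 with spiked-in scaling.

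Tlr4, the signalling receptor for LPS, fell with LPS and, separately, with cordycepin. Its level came from a probe on chromosome 4, 66503470 to 66503529 on the plus strand (mm9), spotted 2 times per array. On days 1 to 4 it was 11.22, 11.13, 11.28 and 11.05 in DMSO and 10.63, 10.79, 10.83 and 10.86 with cordycepin alone. After LPS it was 10.26, 10.64, 10.31 and 10.50 in LPS+DMSO and 10.24, 10.22, 10.35 and 10.16 in LPS+cordycepin. The DMSO arrays lay above those of every other condition, while LPS+DMSO and LPS+cordycepin overlapped. LPS lowered Tlr4 by 0.75 ± 0.10 (SE), 1.68-fold (adjusted p = 5.01e-05), and by 0.54, 1.45-fold, in cells with cordycepin (adjusted p = 0.00166), on 4 of 4 days in both cases. Cordycepin alone lowered it by 0.39, 1.31-fold, on 4 of 4 days (adjusted p = 0.00953). Under LPS the effect of cordycepin was -0.18 (interval -0.39 to 0.02, adjusted p = 0.235), and the LPS responses did not differ detectably (difference 0.21, interval -0.08 to 0.50). The effect of cordycepin alone lost the threshold without day 1 (-0.32, adjusted p = 0.102), without day 3 (-0.37, adjusted p = 0.0845) and without the filter on dim probes (-0.39, adjusted p = 0.0627). It was also lost within the slide of days 1 and 2 (-0.47, adjusted p = 0.188), within that of days 3 and 4 (-0.32, adjusted p = 0.242) and with spiked-in scaling (-0.33, adjusted p = 1). The LPS decrease lost the threshold within the slide of days 1 and 2 (adjusted p = 0.0616) and with spiked-in scaling (0.409). In cells with cordycepin the LPS decrease was lost in the same settings (0.327 and 0.401). A second Tlr4 probe, at 66590077 to 66590136, was not well above background on any array.

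Tlr2, the shared subunit of the lipoprotein receptors, had the largest LPS response of the 8 genes. Its probe was spotted 10 times on each array, and the SD between these spots had a median of 0.03 over the 16 arrays (0.02 to 0.11), against SDs of 0.06 to 0.32 between the days of a condition. The probe lies on the minus strand of chromosome 3 (mm9 chr3:83640344-83640403). It is printed because the largest change rests on it, in lower case throughout.
Tlr2 probe: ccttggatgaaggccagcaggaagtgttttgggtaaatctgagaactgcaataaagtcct
The Tlr2 level on days 1 to 4 was 13.34, 12.59, 13.16 and 12.95 in DMSO, and 15.30, 15.40, 15.51 and 15.57 in LPS+DMSO. With cordycepin it was 13.17, 13.04, 13.13 and 13.05 without LPS, and 14.34, 14.56, 14.61 and 14.76 with LPS. As for Cd14, the LPS+DMSO arrays lay above the LPS+cordycepin arrays and both lay above the arrays without LPS, which overlapped each other. LPS raised Tlr2 by 2.43 ± 0.14 (SE), 5.41-fold (adjusted p = 5.41e-09), on 4 of 4 days, and by 2.29 without the low DMSO array of day 2. In cells with cordycepin the rise was 1.47, 2.77-fold (adjusted p = 2.79e-06). Cordycepin lowered Tlr2 under LPS by 0.88 ± 0.14, 1.84-fold, with daily differences of -0.96, -0.84, -0.90 and -0.81 (adjusted p = 0.00018). Without LPS the difference was 0.09 (interval -0.20 to 0.38).

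The LPS response of Tlr2 was smaller with cordycepin by 0.96 ± 0.19 (SE) on the log2 scale, with daily differences of -0.79, -1.29, -0.87 and -0.90 (adjusted p = 0.0356 for the interaction in limma). With the day of culture as a block the adjusted p was 0.0309. The size was -1.07 to -0.82 when single arrays were left out, and smallest (-0.82) without the low DMSO array of day 2. The call did not hold: it was lost for 11 of the 16 arrays, at adjusted p between 0.0573 and 0.0883. These were all 4 cordycepin arrays, the DMSO array of day 4, the LPS+DMSO arrays of days 2, 3 and 4, and the LPS+cordycepin arrays of days 1, 2 and 3. Leaving out a whole day gave adjusted p of 0.0877, 0.119, 0.372 and 0.258 for days 1 to 4.

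**Figure D2:**
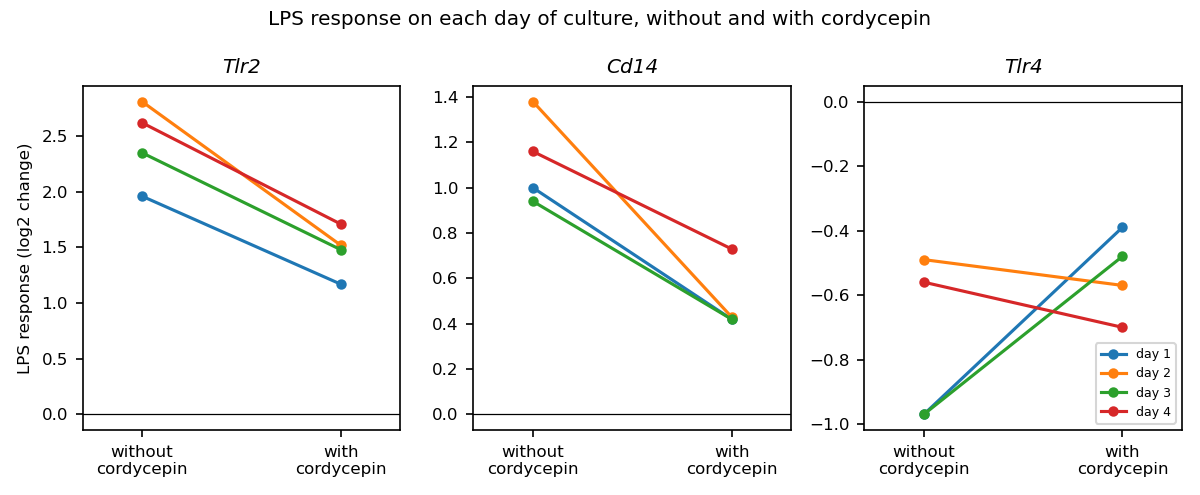
LPS response (log2 change of the level, y axis, a different range in each panel) of Tlr2, Cd14 and Tlr4 on each of 4 days, without cordycepin (left, LPS+DMSO less DMSO) and with cordycepin (right, LPS+cordycepin less cordycepin). Lines join a day. The Tlr2 and Cd14 responses were smaller with cordycepin on 4 of 4 days, while the Tlr4 lines cross.

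The upstream sequence of Tlr2 was searched because its transcript changed most. RefSeq promoters (GRCm38.p6) were matched for 7 of the 10 genes, all but Tlr4, Tlr7 and Cd14. The 250 bases before the annotated start of Tlr2 lie at chr3:83841609-83841858 on the minus strand and are printed 5′ to 3′, with 2 overlapping matches to the NF-κB consensus, searched on both strands, in capitals.
Tlr2 promoter: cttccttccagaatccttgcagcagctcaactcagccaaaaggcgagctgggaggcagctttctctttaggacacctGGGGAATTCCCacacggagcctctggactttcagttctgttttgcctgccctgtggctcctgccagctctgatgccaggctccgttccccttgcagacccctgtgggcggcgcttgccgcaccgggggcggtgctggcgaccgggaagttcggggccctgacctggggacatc
The run in capitals spans bases -173 to -163 from the start. The same consensus was found once before Tlr3, at -211 to -202, and in none of the windows of Tlr1, Tlr6, Tlr8, Tlr9 and Tlr13, and 7.25% of all 32851 promoter windows hold it. The AP-1 motif TGANTCA, also searched on both strands, was found before Tlr9 at -58 to -52 and in 6.75% of all windows. These matches describe letters and are no evidence of binding.

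The changes of Tlr6 and Tlr1, the partners of TLR2, were not tested against each other. Tlr6, which with TLR2 recognises diacylated lipoproteins, was lower in both conditions with cordycepin. Its probe lies on chromosome 5, 65344365 to 65344424 on the minus strand (mm9). On days 1 to 4 its level was 9.37, 8.96, 9.45 and 9.32 in DMSO and 8.58, 8.59, 8.71 and 8.40 with cordycepin alone. After LPS it was 9.12, 9.20, 9.06 and 9.07 in LPS+DMSO and 8.69, 8.69, 8.51 and 8.38 in LPS+cordycepin. Every array with cordycepin lay below every array without it. Cordycepin lowered Tlr6 by 0.71 ± 0.11 (SE), 1.64-fold, without LPS (adjusted p = 0.00026) and by 0.54, 1.46-fold, under LPS (adjusted p = 0.00204), on 4 of 4 days in both cases. LPS changed it by -0.16 (interval -0.40 to 0.07) without cordycepin and by 0.00 (interval -0.23 to 0.24) with it. Within the slide of days 1 and 2 both decreases with cordycepin lost the threshold (adjusted p = 0.102 without LPS and 0.168 under LPS). With spiked-in scaling they were lost too (0.825 and 0.517).

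Tlr1, the partner of TLR2 for triacylated lipoproteins, is the neighbour of Tlr6 on chromosome 5 and passed the threshold in none of the comparisons. The probe, printed to set beside that of Tlr2, lies on the minus strand (mm9 chr5:65316115-65316174).
Tlr1 probe: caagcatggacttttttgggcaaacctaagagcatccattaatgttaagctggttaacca
On days 1 to 4 the Tlr1 level was 8.97, 8.45, 8.94 and 8.92 in DMSO and 8.70, 8.56, 8.58 and 8.72 with cordycepin alone. After LPS it was 8.64, 8.77, 8.70 and 8.77 in LPS+DMSO and 8.80, 8.61, 8.75 and 8.59 in LPS+cordycepin. The 4 conditions overlapped. The change with cordycepin alone was -0.18 (interval -0.41 to 0.05, adjusted p = 0.309). It was -0.30 (adjusted p = 0.0138) without the DMSO array of day 2, whose level of 8.45 was the lowest of all 16. Under LPS the change with cordycepin was -0.03 (interval -0.26 to 0.20), and LPS changed Tlr1 by -0.10 (interval -0.33 to 0.13).

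**Figure D3:**
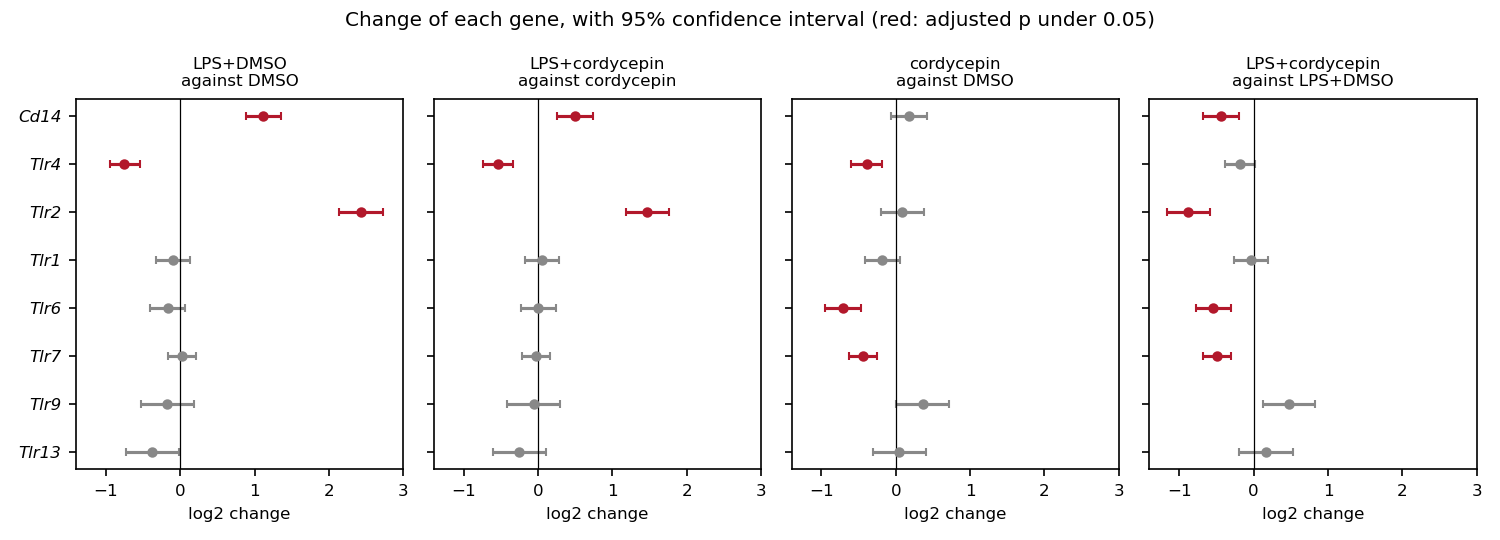
Log2 change (x axis) of the 8 measured genes in 4 comparisons, with 95% confidence intervals from limma over 16 arrays and red for adjusted p under 0.05. The LPS comparisons hold Tlr2 and Cd14 to the right of 0 and Tlr4 to the left, and the cordycepin comparisons hold Tlr6 and Tlr7 to the left in both.

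Among the endosomal receptors, Tlr7 fell with cordycepin, while Tlr9 was higher with it on each day without passing the threshold. Tlr7, the receptor for single-stranded RNA, had 2 probes well above background on all arrays, on the X chromosome at 163742863 to 163742922 and 163743146 to 163743205, minus strand (mm9). By the brighter one its level on days 1 to 4 was 11.83, 11.71, 12.01 and 11.92 in DMSO and 11.51, 11.49, 11.39 and 11.32 with cordycepin alone. After LPS it was 11.90, 12.06, 11.86 and 11.76 in LPS+DMSO and 11.45, 11.45, 11.28 and 11.42 in LPS+cordycepin. Every array with cordycepin lay below every array without it. Cordycepin lowered Tlr7 by 0.44 ± 0.09 (SE), 1.36-fold, without LPS (adjusted p = 0.00232) and by 0.49, 1.41-fold, under LPS (adjusted p = 0.000732), on 4 of 4 days in both cases. The other probe fell by 0.56 (adjusted p = 0.00675) and by 0.41 (adjusted p = 0.039) in the same comparisons. The LPS change by the brighter probe was 0.02 (interval -0.17 to 0.21). Without day 3 the decrease of the brighter probe with cordycepin alone was 0.38 with an adjusted p of 0.0573. Within the slide of days 1 and 2 its decreases lost the threshold (adjusted p = 0.327 without LPS and 0.061 under LPS). With spiked-in scaling both were lost too. One more probe, at 163747214 to 163747273, was not well above background on any array.

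Tlr9, the receptor for CpG DNA, was measured on chromosome 9 at 106128979 to 106129038, plus strand (mm9). Its level on days 1 to 4 was 10.04, 10.12, 10.30 and 10.47 in DMSO and 10.45, 10.42, 10.75 and 10.73 with cordycepin alone. After LPS it was 9.96, 9.84, 10.23 and 10.18 in LPS+DMSO and 10.30, 10.12, 10.79 and 10.89 in LPS+cordycepin. Days 3 and 4 were higher than days 1 and 2 in all 4 conditions, and the conditions compared overlapped, but on each day both cordycepin arrays lay above the matching arrays without it. The change with cordycepin was 0.36 without LPS (adjusted p = 0.178) and 0.47 under LPS (adjusted p = 0.0622), higher on 4 of 4 days in both. With the day of culture as a block these became adjusted p = 0.0175 and 0.00231, and with the slide as a block 0.0101 and 0.001. Under LPS Tlr9 passed without a block too, with quantile normalisation (0.48, adjusted p = 0.0371) and with normexp background correction (0.47, adjusted p = 0.0188). The call thus depends on the block and, under LPS, on the processing as well. The value under LPS also passed without the LPS+cordycepin array of day 1 (0.55, adjusted p = 0.0479) or day 2 (0.61, adjusted p = 0.0139), and without the whole of day 2 (0.54, adjusted p = 0.0494). LPS changed Tlr9 by -0.18 (interval -0.53 to 0.18), lower on 4 of 4 days and not past the threshold with the block either (adjusted p = 0.238).

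Tlr13, the receptor for bacterial ribosomal RNA, was measured on the X chromosome at 103355773 to 103355832, plus strand (mm9). Its level on days 1 to 4 was 12.61, 11.62, 12.59 and 12.44 in DMSO and 12.27, 12.47, 12.42 and 12.29 with cordycepin alone. After LPS it was 11.89, 12.08, 11.92 and 11.86 in LPS+DMSO and 12.02, 12.18, 12.06 and 12.17 in LPS+cordycepin. The DMSO array of day 2 lay below all others, and apart from it the DMSO arrays lay above those with LPS. LPS changed Tlr13 by -0.38 (interval -0.73 to -0.02, adjusted p = 0.162), lower on 3 of 4 days. Without that array the change was -0.61 ± 0.08 (SE, adjusted p = 0.000157), and without the whole of day 2 it was -0.65 (adjusted p = 0.000423). In cells with cordycepin the LPS change was -0.25 (adjusted p = 0.51), lower on 4 of 4 days with no overlap between the arrays. Cordycepin changed it by 0.04 (interval -0.31 to 0.40) without LPS and by 0.17 (interval -0.19 to 0.53) under LPS.

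The receptors for double-stranded RNA and the relative of TLR7 gave no usable level. The Tlr3 probe, on chromosome 8 at 46481729 to 46481788, passed that limit on 3 of 16 arrays, those of DMSO day 3 (4.79), LPS+cordycepin day 2 (5.88) and LPS+cordycepin day 4 (4.71). Both Tlr8 probes, at 163683356 to 163683415 and 163680628 to 163680685 on the X chromosome, were not well above background on any array. No condition measured either gene on all of its 4 arrays, so no fold was computed. Of the other mouse receptors, Tlr5, Tlr11 and Tlr12, none was well above background on any array.

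Of 10 accessory and trafficking genes, whose proteins assist the receptors, 8 were tested. None was raised by LPS (5.14% of all genes), by cordycepin alone (8.23%) or by cordycepin under LPS (10.8%). In each of these comparisons 1 of 8 was lowered, near the 9.8%, 7.55% and 8.45% of all genes. It was Slc15a4, a histidine and peptide transporter of the endolysosome, by 0.34 with LPS (adjusted p = 0.0265), by 0.38 with cordycepin alone (adjusted p = 0.0137) and by 0.46 with cordycepin under LPS (adjusted p = 0.00271). Ly96, which encodes the MD-2 partner of TLR4, changed by 0.00 with LPS (adjusted p = 0.995) and by -0.06 with cordycepin under LPS (adjusted p = 0.897). Unc93b1, the chaperone that carries the nucleic acid receptors to endosomes, changed by 0.04 and 0.11 in the same comparisons (adjusted p = 0.952 and 0.82).

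The adaptors and kinases below the receptors held a few large changes. Of 23 genes 19 were tested. LPS raised 3 of 19 (5.14% of all genes) and lowered 1 (9.8%), and cordycepin under LPS raised none (10.8%) and lowered 5 (8.45%). The median log2 change of the 19 was 0.12 with LPS and -0.17 with cordycepin under LPS, against -0.04 and 0.03 over all genes. Ticam1, which encodes the adaptor TRIF, was 9.78 ± 0.19 in DMSO and 8.96 ± 0.09 with cordycepin, and reached 11.27 ± 0.09 after LPS alone and 10.14 ± 0.20 after both (mean ± SD, n = 4 each). It rose by 1.49 with LPS (adjusted p = 1.55e-07) and fell by 1.13 with cordycepin under LPS (adjusted p = 2.01e-06) and by 0.83 with cordycepin alone (adjusted p = 6.56e-05). Peli1, an E3 ubiquitin ligase of the pathway, rose by 1.48 with LPS (adjusted p = 4.96e-06) and fell by 1.29 with cordycepin under LPS (adjusted p = 1.14e-05). The LPS responses of Ticam1 and Peli1 did not differ detectably with cordycepin. Their interactions were -0.31 (adjusted p = 0.723) and -0.46 (adjusted p = 0.651). Ikbke, the kinase IKKε that phosphorylates interferon regulatory factors, rose by 1.50 with LPS (adjusted p = 1.33e-06), and its LPS response was smaller by 1.16 with cordycepin (adjusted p = 0.0111 for the interaction). Without LPS cordycepin changed Ikbke by 0.09 (adjusted p = 0.731). Tab1, a partner of the kinase TAK1, fell by 0.72 with LPS (adjusted p = 2.29e-06) and by 0.48 with cordycepin under LPS (adjusted p = 6.95e-05). Myd88, the adaptor that most of the receptors share, changed by 0.21 with LPS (adjusted p = 0.189) and by 0.12 with cordycepin under LPS (adjusted p = 0.503). The last of the 5 lowered under LPS was Ikbkg, the regulatory subunit of the IKK complex, which fell by 0.59 (adjusted p = 0.0349). Cordycepin alone raised none of the 19 (8.23% of all genes) and lowered 5 (7.55%): Ticam1, Peli1 (by 0.83), Tab1 (by 0.42), Ikbkg (by 0.70, adjusted p = 0.0153) and Ripk1 (by 0.29, adjusted p = 0.0453).

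Of the 7 negative regulators, all tested, LPS raised 2 (5.14% of all genes) and lowered 2 (9.8%). Cordycepin under LPS raised 1 and lowered 1, near the 10.8% and 8.45% of all genes. Tnfaip3, which encodes the ubiquitin-editing enzyme A20, rose by 5.24 with LPS (adjusted p = 6.59e-13) and fell by 0.94 with cordycepin under LPS (adjusted p = 8.59e-05), and its LPS response was smaller by 1.20 with cordycepin (adjusted p = 0.0103). Cyld, a deubiquitinase, fell by 0.35 with LPS (adjusted p = 0.015) and rose by 0.81 with cordycepin under LPS (adjusted p = 7.74e-06) and by 0.64 with cordycepin alone (adjusted p = 0.000111). The others past the threshold with LPS were Tollip, raised by 0.33 (adjusted p = 0.041), and Sigirr, lowered by 0.44 (adjusted p = 0.0365). Irak3, which encodes the inactive kinase IRAK-M, changed by 0.12 with LPS (adjusted p = 0.569) and by -0.06 with cordycepin under LPS (adjusted p = 0.807).

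**Figure D4:**
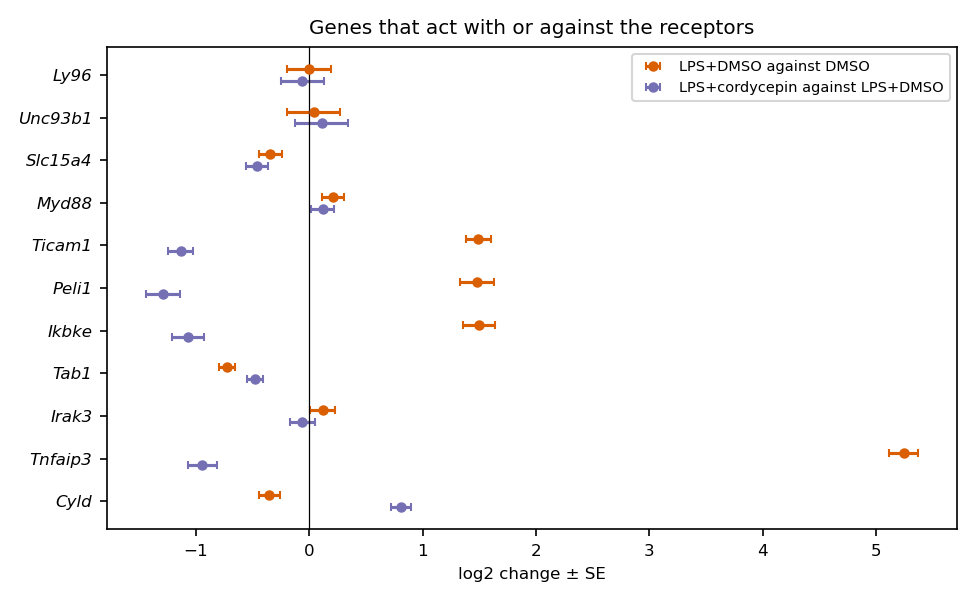
Log2 change ± SE (x axis, limma over 16 arrays) of 11 genes that act with the receptors or against them, with LPS (LPS+DMSO against DMSO) and with cordycepin under LPS (LPS+cordycepin against LPS+DMSO). Ticam1, Peli1, Ikbke and Tnfaip3 lie to the right of 0 with LPS and to the left with cordycepin, while Ly96, Unc93b1, Myd88 and Irak3 lie near 0.

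The condition means of Tlr2 spanned 2.43 log2 units and those of Cd14 1.12, and no other of the 8 genes reached 1. The genes whose 4 condition means, each centred on its own mean, lay closest to those of Tlr2 were Rab20, Cflar and Ccl12, with root-mean-square differences of 0.081, 0.099 and 0.101 log2 units. Their differences between LPS+DMSO and DMSO were 2.46, 2.17 and 2.34, and those between LPS+cordycepin and LPS+DMSO were -0.77, -0.67 and -1.0. For Cd14 the closest were Baz1a, Sat1 and Ralgds, at 0.055, 0.071 and 0.083. Their LPS differences were 1.05, 0.97 and 0.93, and their differences with cordycepin under LPS were -0.41, -0.48 and -0.24. These genes were chosen for the likeness, over 4 means of 4 arrays each, and no test was made of it.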

How the data were processed

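RNA from RAW 264.7 cells was labelled with Cy3 and hybridised to 16 Agilent mouse 1-colour arrays, 4 per condition, each replicate number being a day of culture. The labelling starts at the poly(A) tail, so the values concern polyadenylated RNA. Less of a transcript and less of it with a tail therefore cannot be told apart. The deposited scanner files hold intensity values, the processed signal that the authors obtained with Agilent Feature Extraction 10.10.1.1 (background-subtracted, not normalised between arrays), with probe positions on mm9. The authors also deposited a log2 value table (25775 spots, upper quartile 11.86 to 11.87 over the 16 arrays), used as an alternative, since it correlated with the log2 scanner signals at r = 0.995 to 0.998. Its column scale is log2, while its normalisation is not given in the sources used here beyond the name limma.

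Control spots and spots flagged as outliers (108 to 237 per array) were left out, and spots of a probe were averaged. No spot was saturated. Log2 signals were scaled to the 75th percentile of the 18064 probes detected well above background everywhere. A probe was kept (21597) if it passed that limit on every array of any condition, and the brightest stood for each gene (15877 genes). Accessions or symbols were matched to RefSeq for 31378 of 55681 probes, the rest keeping the name of the array. Group means were compared with limma 3.58.1 in R 4.3.3 in a model of all 16 arrays, two-sided, with Benjamini-Hochberg adjustment at 0.05. The pipeline was tested on simulated data for LPS+DMSO against DMSO. It recovered 72 of 100 genes changed by 1 log2 unit and 98 of 100 changed by 2, with 16 false calls among 15877 genes. Smaller changes were not simulated. The number of arrays limits the precision.

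The replicate numbers pair the samples because the labels tie them to days. Residuals of same-numbered arrays correlated at 0.20 on average (-0.06 to 0.44, over 0.1 for 20 of 24 pairs), those of other days on the same slide at 0.18 and those across slides at -0.19. The model without a block was the main one, as the study's methods name none. Named were all members, the genes of each list past 2-fold (at most 4 per list), Ly96, Myd88, Ticam1, Irak3 and Unc93b1, Tnf, and the 3 genes most like a member that spans at least 1 log2 unit; Slc15a4, Tab1, Ikbkg, Ripk1, Tollip, Sigirr, Cyld, Adgre1 and the cell type markers with values were named after their values were seen. One marker gene is not reported here. The members, lists and tests were chosen with earlier results of these data known. Alternatives covered scaling, background correction, filters, probe choice, blocks, slides, thresholds, the methods' t-test and left-out arrays.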

Additional observations from a re-analysis of the deposited data

Results flagged for a closer look

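In the DMSO condition the array of replicate 2 lay apart from the other 3 for Tlr1, at 8.45, and for Tlr13, at 11.62, by Dixon's test at the 95% level. These were 2 of 32 groups of 4 arrays tested, and chance gives about 1 in 20. The log2 LPS response of Tlr2 with cordycepin less that without was -0.96, which passed the test of the difference itself (adjusted p = 0.0356 in limma). It stayed past the threshold in 15 of 37 alternatives.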

How the results depend on the processing

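Of 1576 recomputed changes of single members, 1442 kept their direction and side of the threshold, 69 lost the threshold, 20 passed it anew and 45 took the other sign. The 1442 include changes not past the threshold to begin with, as 4 to 7 of the 8 genes passed in neither direction in each comparison. Some of the 69 were lost only to a stricter threshold, with the value unchanged. The LPS rise of Tlr2 was past the threshold in 40 of 40 alternatives and that of Cd14 in 39 of 40. With scaling to the spiked-in controls the median log2 change of all genes was -0.14 with LPS (-0.04 as reported), 0.10 with cordycepin (0.04), -0.12 with cordycepin under LPS (0.03), -0.36 with LPS in cordycepin (-0.05) and -0.21 for the interaction (0). Under it 1 member was raised with LPS and 0 with LPS in cordycepin, and 0 were lowered in any of the 5 comparisons. One member, Tlr9, was raised with cordycepin under LPS (1, against 0) under median scaling, quantile normalisation, normexp, the deposited table, replicate block, slide block, slide 2 alone and intensity trend with robust estimation. It was also raised with cordycepin alone (1, against 0) under the replicate block, the slide block and the methods' t-test at an unadjusted p under 0.05, by which 1 member (Tlr13) was raised with cordycepin under LPS. The replicate block changed no other call. That t-test lowered 2 members (Tlr4 and Tlr13) with LPS in cordycepin. Within slide 1 the lowered counts were 0 in all 5 comparisons, and within slide 2 they were 2 with LPS (Tlr4 and Tlr13) and 0 for the interaction. With at least 2-fold required, 0 were lowered in any comparison. LPS in cordycepin raised 1 (Tlr2) without a filter on dim probes, within slide 1, within slide 2, at 2-fold and at an adjusted p under 0.01. The Tlr2 interaction was lost (0) with the deposited table, without a filter on dim probes and at 0.01.

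With arrays or days left out, the raised counts ranged from 0 to 1 with cordycepin under LPS and from 1 to 2 with LPS in cordycepin, and the lowered counts from 1 to 2 with LPS, from 1 to 4 with cordycepin and from 0 to 1 for the interaction. The lowered count with cordycepin was 1 (Tlr6) without replicate 3 and 4 without DMSO replicate 2, which added Tlr1.

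The 45 changes that took the other sign were at most 0.31 in size, and none passed the threshold. They were, with all probes in the percentile, Tlr13 with cordycepin (-0.02), and with normexp Tlr1 with cordycepin under LPS (0.01). With spiked-in scaling they were Tlr7 with LPS (-0.07), Tlr1 (-0.26) and Tlr6 (-0.31) with LPS in cordycepin, and the interactions of Tlr1 (-0.06), Tlr4 (0.00), Tlr6 (-0.04), Tlr9 (-0.09) and Tlr13 (-0.09). With the deposited table it was Tlr6 with LPS in cordycepin (-0.03), and with mean probes Tlr7 with LPS in cordycepin (0.08) and for the interaction (0.05). Within slide 1 they were Tlr1 with cordycepin under LPS (0.00) and the interactions of Tlr9 (-0.05) and Tlr13 (-0.14). Within slide 2 they were Tlr7 with LPS (-0.16), Tlr13 with cordycepin (-0.16), Tlr6 (-0.10) and Tlr9 (0.10) with LPS in cordycepin, and the interaction of Tlr7 (0.15). With arrays left out, ranges that crossed 0 were -0.08 to 0.09 for Tlr7 with LPS, -0.05 to 0.20 for Tlr2 and -0.22 to 0.17 for Tlr13 with cordycepin, and -0.10 to 0.02 for Tlr1 with cordycepin under LPS. With LPS in cordycepin they were -0.05 to 0.07 for Tlr6, -0.07 to 0.01 for Tlr7 and -0.18 to 0.08 for Tlr9, and for the interaction -0.15 to 0.06 for Tlr7 and -0.01 to 0.25 for Tlr9. The cause of these changes was not tested.

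Over all genes, the comparisons with LPS, cordycepin, cordycepin under LPS, LPS in cordycepin and the interaction called 2372, 2505, 3049, 1294 and 88 genes, against 518, 701, 943, 385 and 12 with spiked-in scaling and 728, 881, 1184, 462 and 58 at 2-fold. For the interaction the replicate block called 208 genes, no filter on dim probes 11 and slide 1 alone 5. Levels near background, as for Tlr3 and Tlr8, set the limit of detection.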

Other observations

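Averaged over the 4 conditions, the log2 level of Tlr9 was 0.39 higher on the slide of replicates 3 and 4 than on the slide of replicates 1 and 2, with differences of 0.30 to 0.63 between conditions. For the other 7 genes this mean difference lay between -0.06 (Tlr7) and 0.13 (Cd14). The slides carried different days, so slide and day cannot be told apart here.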
